A study of Mus musculus with 19 samples.

Results

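The hotspots of chromosome 19, the smallest mouse autosome, were taken from 5 tables of meiotic DNA break hotspots as every entry placed on that chromosome. They numbered 531 in B6/SPRT, beside 17991 on the other 18 autosomes, 494 in Hum/SPRT (15233), 251 in CAST/SPRT (9341), 495 in STUS/B6 (16814) and 311 in STUS/Hum (9720), together 2082 of 71181 autosomal hotspots (74327 with the X chromosome). Each genotype had 1 DMC1 single-stranded DNA sequencing (SSDS) library from whole testis. H3K4me3 ChIP-seq and input came from testis of the 3 SPRT hybrids, with 3 samples of each kind in Hum/SPRT (rep1, rep1b and rep2, of which rep1b may repeat rep1) and 2 in each of the others. The animals were adult male F1 hybrids, for which the methods give 10 weeks of age.

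The SPRT hybrids had a B6 mother and a father of the SPRET/EiJ strain of Mus spretus (strain label B6xSPRETUS). The STUS hybrids came from B6 and the wild-derived strain STUS (label B6xSTUS). The Prdm9 genotypes were labelled B6/SPRETUS, HUM/SPRETUS, CAST/SPRETUS, B6/STUS and HUM/STUS, and are written B6/SPRT, Hum/SPRT, CAST/SPRT, STUS/B6 and STUS/Hum. The Hum allele is an engineered B6 allele with the DNA-binding array of human PRDM9, and the CAST allele carries that of Mus musculus castaneus. Whole testis was sampled, so the number of meiotic cells behind a library is unknown. All 5 genotypes carry 1 chromosome 19 of B6, and the hybrids of a cross also share the partner chromosome and partner PRDM9, so the 5 sets of values are not independent of each other.

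PRDM9 is a zinc finger protein that binds a DNA motif set by its allele and trimethylates lysine 4 of histone H3 nearby, after which SPO11 cuts the DNA. DMC1 coats the resected ends and carries out the search for the homologous chromosome. Motifs that a PRDM9 allele has used for many generations are lost by gene conversion, so that in a hybrid an allele often binds better on the chromosome it did not evolve with, and breaks then fall mainly on one homolog.

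The promoters that a break center touched are shown first. Of the 2082 chromosome 19 hotspots, 7 had their center in a RefSeq promoter window of that chromosome. The 1042 windows of 300 bases (GRCm38.p6) run from 250 bases before to 50 after the start site. The share of such hotspots on other autosomes and the strands of all windows were not examined. The 7 hotspots lay at 6 genes, all on the minus strand. The 4 whose hotspot was matched in some genotype, with 25 to 75% of DMC1 reads from the B6 chromosome, are printed 5′ to 3′ with capitals for the bases within 20 of a center. They are the windows of Ermp1 (chr19:29648366-29648665), which encodes a metallopeptidase of the endoplasmic reticulum, the long noncoding RNAs 4931408D14Rik (chr19:37264046-37264345) and Gm31595 (chr19:55274109-55274408), and Psat1 (chr19:15924573-15924872), an enzyme of serine synthesis.
Ermp1: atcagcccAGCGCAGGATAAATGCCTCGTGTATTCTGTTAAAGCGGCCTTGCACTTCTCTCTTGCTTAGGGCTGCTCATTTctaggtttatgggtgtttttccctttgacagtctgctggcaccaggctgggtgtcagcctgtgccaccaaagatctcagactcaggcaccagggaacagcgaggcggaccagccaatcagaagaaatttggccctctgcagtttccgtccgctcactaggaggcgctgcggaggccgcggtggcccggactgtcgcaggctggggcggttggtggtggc
4931408D14Rik: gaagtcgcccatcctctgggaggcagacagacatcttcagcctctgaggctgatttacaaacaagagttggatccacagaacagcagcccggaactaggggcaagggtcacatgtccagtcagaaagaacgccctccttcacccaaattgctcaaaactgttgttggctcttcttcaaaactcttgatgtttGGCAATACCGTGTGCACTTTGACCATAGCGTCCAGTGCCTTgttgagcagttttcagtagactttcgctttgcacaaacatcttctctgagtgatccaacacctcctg
Gm31595: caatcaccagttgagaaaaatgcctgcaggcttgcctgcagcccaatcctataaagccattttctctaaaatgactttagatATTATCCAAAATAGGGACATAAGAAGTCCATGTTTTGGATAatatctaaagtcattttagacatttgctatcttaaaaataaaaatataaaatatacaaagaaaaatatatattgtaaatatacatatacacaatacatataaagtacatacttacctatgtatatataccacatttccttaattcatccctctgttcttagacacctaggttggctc
Psat1: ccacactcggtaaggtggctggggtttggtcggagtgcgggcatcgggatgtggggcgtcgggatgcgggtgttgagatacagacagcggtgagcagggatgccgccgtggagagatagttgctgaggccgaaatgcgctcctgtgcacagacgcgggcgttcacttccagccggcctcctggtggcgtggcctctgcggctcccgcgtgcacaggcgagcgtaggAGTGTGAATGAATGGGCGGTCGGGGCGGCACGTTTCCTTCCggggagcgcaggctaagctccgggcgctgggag

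At Ermp1 the center lay at chr19:29648637 in B6/SPRT, with a DMC1 signal of 22.1 and 17.5% of reads from B6, and at chr19:29648605 in Hum/SPRT, with a signal of 10.2 and 47.4%. Both were weak, ranking 425 of 531 and 486 of 494 by signal on chromosome 19. H3K4me3 at the pair was enriched 41.9 and 34.8 times over input, with 59.9% and 54.8% of its reads from B6. The median enrichment at chromosome 19 hotspots was 5.77 for B6/SPRT and 4.80 for Hum/SPRT. The center at 4931408D14Rik, chr19:37264133 in CAST/SPRT, had a DMC1 signal of 20.1, 65% from B6, and an H3K4me3 enrichment of 153. The CAST/SPRT median was 29.7. No PRDM9 allele was assigned at either gene. How much of the mark at these promoters was placed by PRDM9 was not tested. Psat1 (chr19:15924626, 42.5% from B6) and Gm31595 (chr19:55274306, 34.3%) were matched in STUS/B6, and Gm31595, with a signal of 60.6, was the 1 of the 7 hotspots with an assigned allele, B6. At Gpam (chr19:55127468 in STUS/Hum) 13% and at Gm41867 (chr19:54761196 in Hum/SPRT) 4.32% of reads came from B6. H3K4me3 enrichment at Gm41867 was 2.23, below the Hum/SPRT median. The 13-letter human hotspot motif CCNCCNTNNCCNC, on both strands, was in 6.14% of the chromosome 19 windows and 6.35% of the 31365 autosomal ones. The 7-letter CCTCCCT was in 15.3% and 15.4%. Neither was in the windows of these 6 genes, which says only that the letters were not there.

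Chromosome 19 had the fewest hotspots of any autosome in all 5 genotypes, yet it was densely covered. It held 2.87% of autosomal hotspots in B6/SPRT (95% Wilson interval 2.64 to 3.12%), 3.14% in Hum/SPRT (2.88 to 3.43%), 2.62% in CAST/SPRT (2.32 to 2.96%), 2.86% in STUS/B6 (2.62 to 3.12%) and 3.10% in STUS/Hum (2.78 to 3.46%). These intervals and those below cover counting error only. The stretch from its first to its last hotspot was 56.4 to 57.9 Mb long, 2.37 to 2.43% of the same over all autosomes. Its share of hotspots thus exceeded its share of length in each genotype, though in CAST/SPRT the interval included the share of length. Per Mb of that stretch there were 9.20 hotspots in B6/SPRT (other autosomes 6.73 to 9.24), 8.54 in Hum/SPRT (5.89 to 7.44), 4.34 in CAST/SPRT (3.59 to 4.54), 8.58 in STUS/B6 (6.50 to 8.38) and 5.51 in STUS/Hum (3.70 to 4.88). The density was above all 18 other autosomes in Hum/SPRT, STUS/B6 and STUS/Hum, below chromosome 11 alone in B6/SPRT and below 3 others in CAST/SPRT.

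The DMC1 signal, which the authors' caller gives for each hotspot and which is called heat, can be compared only within a library, since its scaling to depth is not stated. Chromosome 19 carried 3.08% of the autosomal signal in B6/SPRT, 3.19% in Hum/SPRT, 2.57% in CAST/SPRT, 3.34% in STUS/B6 and 3.34% in STUS/Hum. Per Mb it was the hottest of the 19 autosomes in 4 genotypes, the exception being CAST/SPRT, where 4 others were hotter. Its median hotspot lay inside the range of the other autosomes in each genotype. The median signal was 53.6 in B6/SPRT (other autosomes 48.6 to 58.9), 39.4 in Hum/SPRT (39.2 to 45.9), 25.2 in CAST/SPRT (23.0 to 29.1), 49.1 in STUS/B6 (40.6 to 52.4) and 35.3 in STUS/Hum (31.1 to 37.7).

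A hotspot is called matched here when 25 to 75% of its SNP-carrying DMC1 reads came from the B6 chromosome, ends included. The tables do not say how many reads stand behind that percentage. It was missing for 26.4% of chromosome 19 hotspots in B6/SPRT, 22.5% in Hum/SPRT, 19.1% in CAST/SPRT, 8.08% in STUS/B6 and 7.72% in STUS/Hum. Among chromosome 19 hotspots with a value, 98 of 391 were matched in B6/SPRT (25.1%, interval 21.0 to 29.6%), beside 29.0% over all autosomes. In Hum/SPRT it was 116 of 383 (30.3%, 25.9 to 35.1%), beside 33.6%, and in CAST/SPRT 61 of 203 (30.0%, 24.2 to 36.7%), beside 32.7%. In STUS/B6 it was 141 of 455 (31.0%, 26.9 to 35.4%), beside 34.2%, and in STUS/Hum 122 of 287 (42.5%, 36.9 to 48.3%), beside 46.5%. By count the chromosome 19 share thus lay below the median of the other autosomes in each genotype, lowest of the 19 in B6/SPRT and STUS/Hum, and the autosomal share was inside its interval in each genotype. With limits of 10 and 90% the difference turned to 0.501 percentage points above that median in CAST/SPRT. With 1 library per genotype no test was made between chromosomes or genotypes, because hotspots of a library are not replicates.

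Weighted by signal, the shortfall was larger. The paper cites work in which breaks facing an eroded motif were repaired more slowly. How far the signal reflects long-lasting rather than frequent breaks was not tested. Matched hotspots carried 15.9% of the chromosome 19 signal with a B6 percentage in B6/SPRT, where the other autosomes ranged from 18.1 to 31.1% with a median of 24.5%. The share was 20.1% in Hum/SPRT (others 23.3 to 35.6%, median 27.9%) and 24.8% in CAST/SPRT (24.3 to 37.3%, median 31.3%). It was 12.6% in STUS/B6 (16.9 to 25.9%, median 19.6%) and 37.1% in STUS/Hum (38.8 to 48.8%, median 43.4%). Chromosome 19 was thus the lowest autosome in 4 of 5 genotypes and above 2 others in CAST/SPRT. Over the other 18 autosomes, which share a library and differ in hotspot number, Spearman's rho between length covered and this share was 0.12 in B6/SPRT, 0.26 in Hum/SPRT, 0.14 in CAST/SPRT, -0.06 in STUS/B6 and 0.19 in STUS/Hum. Pearson's r for the same 18 was 0.40, 0.40, 0.22, 0.19 and 0.19 in that order.

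**Figure D1:**
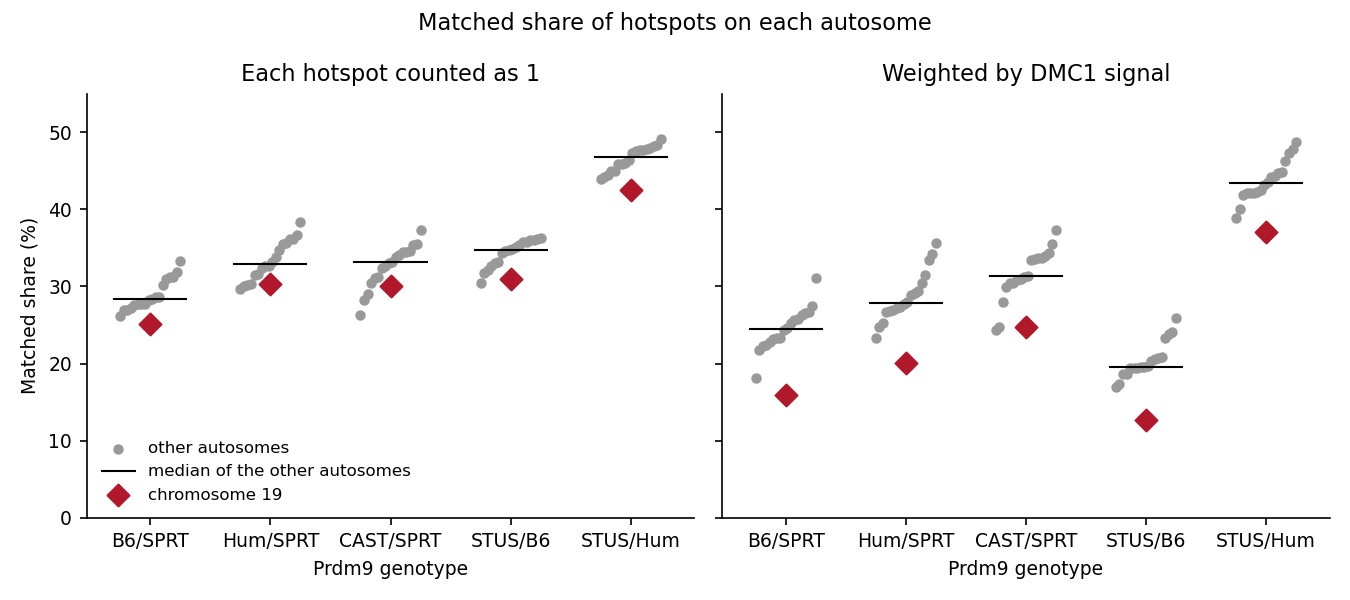
Matched share (%) of hotspots on each autosome in the 5 Prdm9 genotypes, counting each hotspot as 1 on the left and weighting it by DMC1 signal on the right. Grey points are the 18 other autosomes, lines their median and diamonds chromosome 19, which by signal lies below all of them in each genotype except CAST/SPRT.

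The shortfall by count was largest among strong hotspots in all genotypes but STUS/Hum. The autosomal hotspots of a library with a B6 percentage were split by signal into 3 groups of equal size. In the strongest group, 19 of 133 chromosome 19 hotspots were matched in B6/SPRT (14.3%, interval 9.34 to 21.2%), against 16.2 to 29.4% on the other autosomes. It was 20 of 121 in Hum/SPRT (16.5%, 11 to 24.2%; others 19.8 to 33.3%), 15 of 72 in CAST/SPRT (20.8%, 13.1 to 31.6%; others 21.5 to 38.2%) and 17 of 162 in STUS/B6 (10.5%, 6.66 to 16.2%; others 15.3 to 25.3%). Each of these was the lowest of the 19 autosomes. STUS/Hum differed, with 38 of 91 (41.8%, 32.2 to 52.0%) beside a median of 41.6%. In the middle group chromosome 19 was above the median of the others in the other 4 genotypes, at 31.0%, 33.6%, 36.8% and 43.2%, and below it in STUS/Hum, at 41.6%. In the weakest group it was below the median in all 5, though by less in the first 4: 30.2% beside 34.2% in B6/SPRT, 39.3% beside 40.6% in Hum/SPRT, 33.3% beside 36.3% in CAST/SPRT and 41.6% beside 43.4% in STUS/B6. STUS/Hum had 44.2% beside 50.8%.

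**Figure D2:**
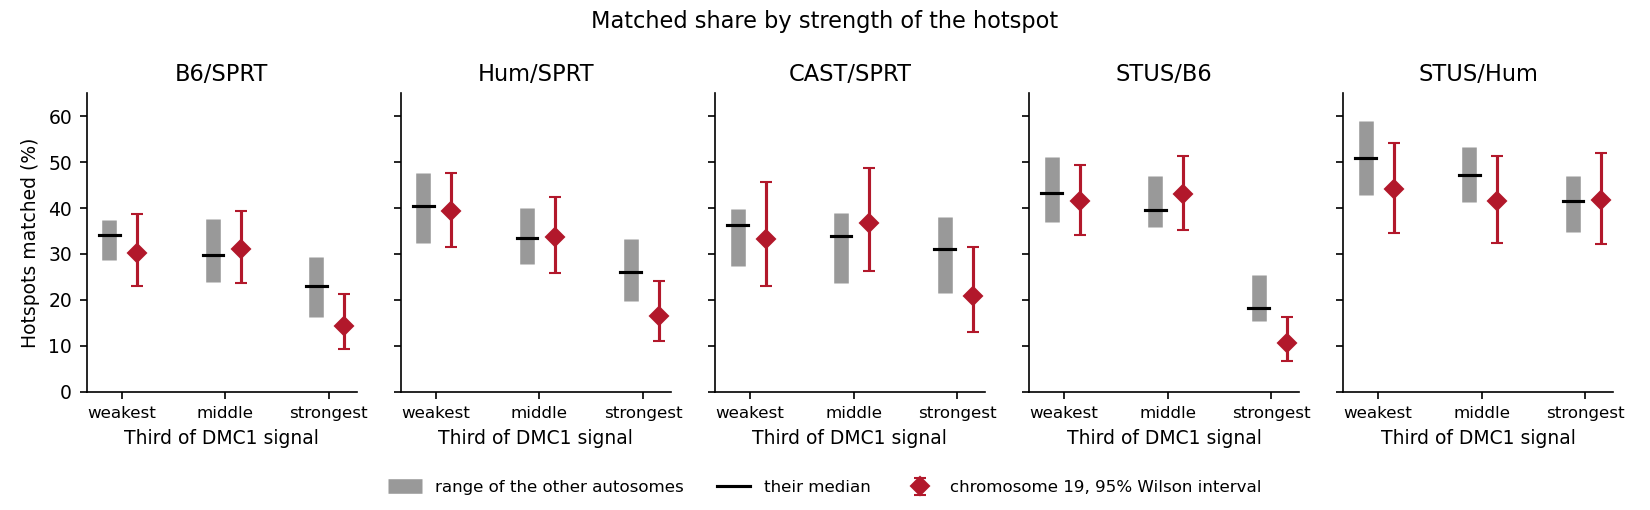
Percent of hotspots matched in the weakest, middle and strongest group of equal size by DMC1 signal, one panel per genotype. Grey bars span the 18 other autosomes, black lines are their median, and diamonds with 95% Wilson intervals are chromosome 19, which in the strongest group lies under the grey bar in every genotype except STUS/Hum.

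Of the 20 strongest chromosome 19 hotspots with a B6 percentage, 1 was matched in B6/SPRT, 0 in Hum/SPRT, 2 in CAST/SPRT, 0 in STUS/B6 and 3 in STUS/Hum, where the medians of the other autosomes were 5, 5, 6.50, 1 and 8. This count was chosen after seeing the data, and 20 hotspots are a larger part of chromosome 19 than of any other autosome. Leaving out those 20 on every autosome raised the chromosome 19 share of signal at matched hotspots to 18.8% in B6/SPRT and 16.6% in STUS/B6, still below all other autosomes. In Hum/SPRT it became 25.4%, below 15 of the 18, and in CAST/SPRT 30.3%, below 12. In STUS/Hum it became 45.5%, above 13 of the 18, while with 10 left out it was 42.4%, a difference of -1.22 percentage points from the median.

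The signal of one-sided hotspots on chromosome 19 lay more on the B6 homolog than on the partner, narrowly so in STUS/B6. Hotspots with over 75% of reads from B6 carried 62.0% of the signal in B6/SPRT (others 51.8 to 61.9%), 63.8% in Hum/SPRT (52.6 to 64.6%), 53.2% in CAST/SPRT (51.0 to 61.1%), 45.5% in STUS/B6 (37.1 to 44.7%) and 48.0% in STUS/Hum (36.4 to 44.5%). The excess over the other autosomes was thus found in STUS/B6 and STUS/Hum, and in B6/SPRT by less than 0.1 percentage points. By count B6/SPRT had none, with 46.5% of its hotspots over 75% B6 and a median of 47.0% elsewhere. STUS/B6 was inside the range by count (37.8%; others 32.1 to 38.6%), and STUS/Hum was above it (40.1%; 33.6 to 38.6%). In CAST/SPRT the excess was on the partner homolog, where hotspots with under 25% from B6 carried 22.1% of the signal, against 9.91 to 15.2% elsewhere. B6/SPRT had an excess there too, at 22.1% against 16.5 to 21.4%. In STUS/B6 that side carried 41.8%, nearly as much as the B6 side. Matched hotspots had a lower median signal than one-sided ones within chromosome 19. Their median signal against that of one-sided hotspots was 40.9 against 67.1 in B6/SPRT, 31.2 against 46.6 in Hum/SPRT, 22.9 against 30.5 in CAST/SPRT, 34.9 against 89.7 in STUS/B6 and 33.9 against 38.3 in STUS/Hum. In B6/SPRT and STUS/Hum this held only for the hotspots over 75% B6, and those under 25% had medians of 38.9 and 32.7, below the matched ones. Among named alleles the exception was Hum, with 42.1 against 32.3 in STUS/Hum and 30.7 against 30.6 in Hum/SPRT. Hotspots without an assigned allele were a further exception in B6/SPRT (23.0 against 22.3) and STUS/Hum (35.3 against 31.9). They were so in CAST/SPRT too (27.4 against 23.1, with 3 matched), but not in Hum/SPRT or STUS/B6.

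The PRDM9 allele held responsible for each hotspot was assigned by the authors through comparison with other mice. On chromosome 19 the SPRT allele took 246 of 531 hotspots in B6/SPRT (46.3%, interval 42.1 to 50.6%), 245 of 494 in Hum/SPRT (49.6%, 45.2 to 54.0%), with CAST/SPRT at 114 of 251 (45.4%, 39.4 to 51.6%). The other autosomes had 45.7 to 53.6%, 55 to 61.0% and 47.9 to 57.6%, so that chromosome 19 was lowest in Hum/SPRT and CAST/SPRT and second lowest in B6/SPRT. By signal the SPRT share was lowest of the 19 in all 3, at 65.4%, 59.2% and 46.6%.

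The allele opposite SPRT took a larger share of the signal on chromosome 19 than on any other autosome. Hum hotspots made up 172 of 494 in Hum/SPRT (34.8%, 30.7 to 39.1%; others 26.5 to 31.8%) and 28.1% of the signal (17.6 to 24.6%), above every other autosome by both measures. CAST hotspots made up 100 of 251 in CAST/SPRT (39.8%, 34.0 to 46.0%; others 33.1 to 41.8%) and 40% of the signal (31.1 to 39.4%). B6 hotspots made up 123 of 531 in B6/SPRT (23.2%, 19.8 to 26.9%; others 20.4 to 25.1%) and 22.3% of the signal (14.9 to 20.7%). In the STUS cross, B6 took 171 and STUS 249 of 495 hotspots in STUS/B6 (34.5% and 50.3%, inside the ranges of the others). In STUS/Hum, Hum took 163 and STUS 97 of 311 (52.4% and 31.2%), second highest and second lowest of the 19.

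Hotspots without an assigned allele were also frequent on chromosome 19 in the SPRT hybrids. They numbered 76 in Hum/SPRT (15.4%; others 10.7 to 13.2%) and 37 in CAST/SPRT (14.7%; 8.44 to 11.7%), the highest of the 19 in both. B6/SPRT had 161 (30.3%; 23.0 to 31.6%), STUS/B6 75 (15.2%; 11 to 17.1%) and STUS/Hum 50 (16.1%; 12.1 to 16.8%). In CAST/SPRT the unassigned share was 5.01 percentage points above the median of the others and the CAST share 4.11 above it, while the SPRT share was lower by 8.02.

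**Figure D3:**
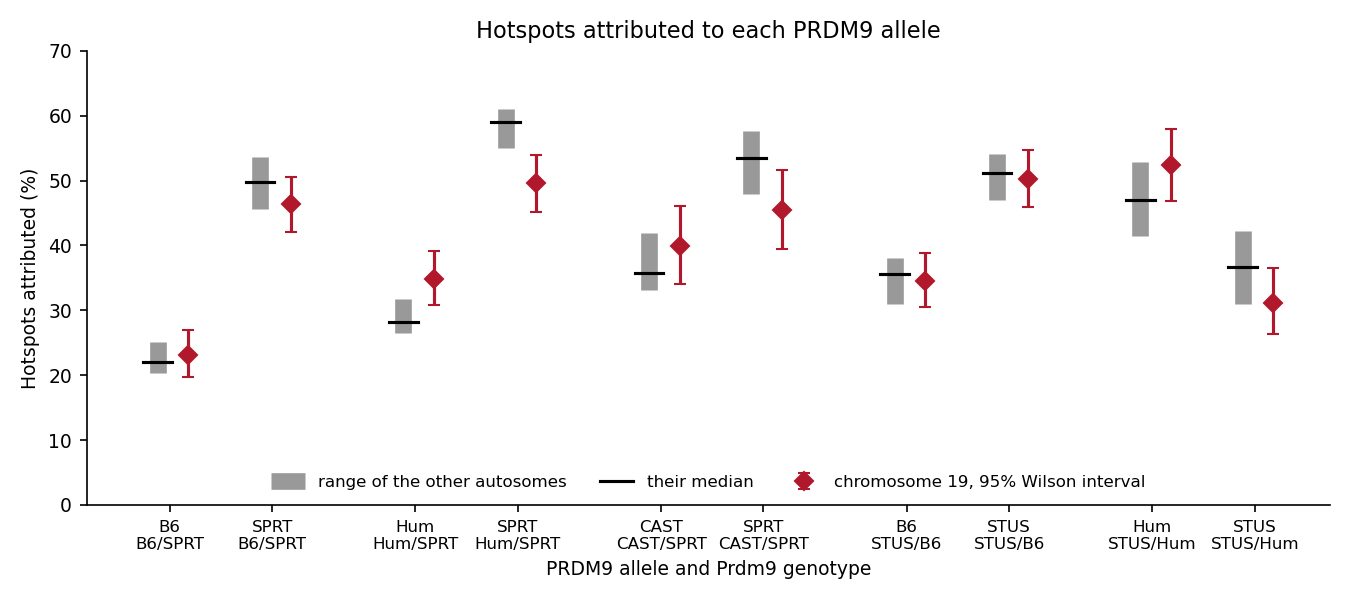
Percent of hotspots attributed to each PRDM9 allele in each genotype. Grey bars span the 18 other autosomes, black lines are their median, and diamonds with 95% Wilson intervals are chromosome 19, which lies under the bar for SPRT in Hum/SPRT and CAST/SPRT and over it for Hum in Hum/SPRT.

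SPRT hotspots of chromosome 19, bound by the PRDM9 of the Mus spretus parent, were matched in 51 of 204 cases in B6/SPRT (25%, interval 19.6 to 31.4%; all autosomes 29.5%), in 55 of 205 in Hum/SPRT (26.8%, 21.2 to 33.3%; 30.8%) and in 15 of 102 in CAST/SPRT (14.7%, 9.12 to 22.9%; 22.3%). By signal the matched share was 14.5% in B6/SPRT (others 18 to 33.5%), 14.6% in Hum/SPRT (16.2 to 32.5%), with CAST/SPRT at 7.57% (9.51 to 23.1%). It was the lowest of the 19 autosomes in all 3, and chromosome 18 was the next lowest in all 3. Hotspots with over 75% of reads from B6 held 80.1%, 79.6% and 89.2% of the SPRT signal, above every other autosome in each.

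STUS hotspots of chromosome 19 also had the lowest matched share by signal, in the other cross. In STUS/B6 77 of 231 were matched (33.3%, 27.6 to 39.6%; all autosomes 36.3%) and in STUS/Hum 21 of 91 (23.1%, 15.6 to 32.7%; 30.7%). By signal the matched share was 15.1% (others 16 to 27.4%) and 12.1% (14.3 to 30.0%), lowest of the 19 in both, while hotspots over 75% B6 held 83.8% (67.7 to 79.7%) and 86.0% (64.5 to 81.8%) of the STUS signal. The next lowest autosome was not 18 here but 11 in STUS/B6 and 10 in STUS/Hum.

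B6 hotspots leaned the opposite way, to the partner chromosome. In B6/SPRT 15 of 76 were matched (19.7%, 12.3 to 30.0%; all autosomes 25.5%), and 56 of the 76 had under 25% of reads from B6 (73.7%; others 52.4 to 69.1%). By signal those 56 held 83.6%, inside the range of the others (72.3 to 87.8%). In STUS/B6 54 of 155 were matched (34.8%, 27.8 to 42.6%; all autosomes 38.1%). By signal the matched share was 12% in B6/SPRT (others 7.92 to 21.2%) and 11% in STUS/B6 (14.9 to 27.3%). It was the lowest autosome for B6 in STUS/B6 but not in B6/SPRT.

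Hum and CAST hotspots, whose PRDM9 did not evolve with either chromosome, were matched more often than the hotspots of the partner allele. Hum hotspots were matched in 48 of 129 cases in Hum/SPRT (37.2%, 29.4 to 45.8%; all autosomes 43.3%) and 88 of 151 in STUS/Hum (58.3%, 50.3 to 65.8%; 63.7%), CAST hotspots in 43 of 80 (53.8%, 42.9 to 64.3%; 54.3%). By signal the shares were 37.0% (others 35.4 to 56.3%), 55.3% (57.9 to 71.5%) and 50.7% (50.8 to 69.0%). These alleles too had less matched signal on chromosome 19 than the median of the others, which was 49.5%, 67.3% and 59.7%. Their one-sided signal went to different homologs. Hum hotspots over 75% B6 held 44.4% of the Hum signal in Hum/SPRT (others 24.4 to 39.4%) and 28.7% in STUS/Hum (12 to 21.7%), while CAST hotspots under 25% B6 held 37.2% of the CAST signal (12.8 to 27.9%). Over the 10 pairs of allele and genotype, the matched share by signal on chromosome 19 was the lowest of the 19 autosomes in 8 and below the median of the others in 10. By count it was the lowest in 4 and below the median in 10. The CAST pair was 1 of the 8 by less than 0.1 percentage points, and the strongest CAST hotspot lay just outside the matched range. Both tallies are of limited weight, because the pairs repeat many of the same hotspots.

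The strongest SPRT hotspot was the same in the 3 SPRT hybrids, within Tmc1, which encodes a mechanotransduction channel of inner ear hair cells. Its center was chr19:21034265 in B6/SPRT, with a DMC1 signal of 610 and 99.5% of reads from B6. It was chr19:21034210 in Hum/SPRT, with a signal of 452 and 99.5%, and chr19:21034393 in CAST/SPRT, with a signal of 173 and 99.7%. H3K4me3 there was nearly as one-sided as DMC1, with 97.0% of 810 SNP-carrying reads from B6 in B6/SPRT (Wilson interval 95.6 to 98.0%), 96.6% of 1124 in Hum/SPRT (95.4 to 97.5%), and CAST/SPRT had 99.7% of 604 (98.8 to 99.9%).

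The strongest matched SPRT hotspot was also shared, at chr19:42450966 in B6/SPRT, 2.59 kb from the noncoding RNA Gm41849. Its DMC1 signal was 293, 158 and 35.4 in B6/SPRT, Hum/SPRT and CAST/SPRT, with 71.5%, 67.4% and 73.7% of reads from B6 and 68.2%, 71.2% and 73.7% by H3K4me3. It sat near the upper limit of the matched range in all 3. Of the 122 chromosome 19 positions called in all 3 SPRT hybrids, 103 had 3 B6 percentages, and of these 10 were matched in all 3, 84 were over 75% in all 3, 4 were under 25% in all 3 and 5 were matched in some. The 9.71% matched in all 3 was above chromosome 18 alone (others 8.09 to 22.9%, median 17.4%). The 81.6% over 75% in all 3 was below chromosome 18 alone (66.2 to 83.8%), and the 3.88% under 25% was inside the range (2.92 to 8.67%). Next by mean rank of signal among the 10 came chr19:11135626, 4.04 kb from Ms4a19, with 43.0%, 29.0% and 36.4% of reads from B6, and chr19:24703854 within Pgm5, with 65.7%, 64.4% and 50%.

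The strongest STUS hotspots repeated between the hybrids as well. In STUS/B6 it was chr19:58234436, 1.14 kb from Gfra1, the GDNF co-receptor found on spermatogonial stem cells, with a signal of 889 and 99.7% of reads from B6; the same place had 354 and 99.0% in STUS/Hum. In STUS/Hum it was chr19:59159079, 5.40 kb from the homeobox gene Vax1, with 363 and 99.2%, and in STUS/B6 774 and 99.4%. The strongest matched STUS hotspot was chr19:7514520 within Atl3, which encodes a membrane-shaping GTPase of the endoplasmic reticulum, in both. There 42.0% of reads came from B6 in STUS/B6, at a signal of 421, and 45.5% in STUS/Hum, at 143.

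For the B6 allele the strongest hotspot was chr19:20796501 in STUS/B6, also within Tmc1, with a signal of 949 and 0.554% of reads from B6. The same position (chr19:20796579) had a signal of 54.8 and 0% in B6/SPRT. In B6/SPRT the strongest was chr19:10669733 within the pepsinogen gene Pga5, with a signal of 538 and 2.88%; its H3K4me3 was at 10.1% of 796 reads (8.15 to 12.3%). In STUS/B6 that place (chr19:10669712) had a signal of 891 and 5.44%, with no allele assigned. The strongest matched B6 hotspots were chr19:59442945 within Emx2os, the antisense RNA of Emx2, in B6/SPRT (signal 261, 30.7%) and chr19:27611106, outside genes, in STUS/B6 (signal 153, 57.2%).

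For Hum the strongest hotspot was the same in both crosses, within Gnaq, a G protein alpha subunit, at chr19:16146903 in Hum/SPRT (signal 342) and chr19:16146889 in STUS/Hum (signal 311). Neither table gives its B6 percentage for DMC1, and H3K4me3 in Hum/SPRT put it at 63.8% of 680 reads (60.1 to 67.4%). The strongest hotspot of the allele therefore did not enter the matched shares. The strongest matched Hum hotspots were chr19:3631689 within the Wnt co-receptor gene Lrp5 in Hum/SPRT (signal 185, 27.6%) and chr19:29427842 within Pdcd1lg2, a ligand of the immune receptor PD-1, in STUS/Hum (signal 212, 45.0%). For CAST the strongest was chr19:25733818, 41.7 kb from the noncoding RNA Gm34516, with a signal of 102 and 24.0%, just outside the matched range; its H3K4me3 was at 45.3% of 1070 reads (42.4 to 48.3%). The strongest matched CAST hotspot was chr19:40223071 within Pdlim1, with a signal of 77.7, 50.6% by DMC1 and 49.3% by H3K4me3.

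Along the chromosome, hotspots began at 3172445 to 3631613 and ended at 60070811 to 61209156 in the 5 genotypes. The median distance between neighbors was 69.3 kb in B6/SPRT, 73.0 kb in Hum/SPRT, 145 kb in CAST/SPRT, 70.5 kb in STUS/B6 and 105 kb in STUS/Hum, and except in CAST/SPRT it was shorter than on any other autosome. The longest stretch without a hotspot was 1.04 Mb in B6/SPRT (chr19:7486768-8523156), 1.34 Mb in Hum/SPRT (chr19:12815628-14155151), 1.46 Mb in CAST/SPRT (chr19:12696483-14155085), 1.37 Mb in STUS/B6 (chr19:38853733-40223084) and 1.54 Mb in STUS/Hum (chr19:14600440-16140435). Those of Hum/SPRT and CAST/SPRT nearly coincide.

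In 10 Mb stretches, matched shares were uneven but mostly within each other's counting error. From 30 to 40 Mb the matched count was 12 of 58 in B6/SPRT (20.7%), 14 of 53 in Hum/SPRT (26.4%), 3 of 25 in CAST/SPRT (12%), 21 of 76 in STUS/B6 (27.6%) and 11 of 41 in STUS/Hum (26.8%). Among the 6 stretches with at least 20 such hotspots, this was the lowest in Hum/SPRT, CAST/SPRT and STUS/Hum. The lowest was 40 to 50 Mb in B6/SPRT (11 of 66, 16.7%) and 50 to 60 Mb in STUS/B6 (18 of 75, 24.0%). With stretches of 5 Mb the lowest began at 20 Mb in Hum/SPRT (22.2%) and STUS/B6 (21.2%), so its place depended on their length. In CAST/SPRT only 2 stretches of 5 Mb held 20 such hotspots, and the lower of them began at 55 Mb (39.3%). The widest contrast was in STUS/Hum, where the stretch from 20 to 30 Mb had 31 of 51 matched (60.8%, interval 47.1 to 73.0%) and the next one 26.8% (15.7 to 41.9%).

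**Figure D4:**
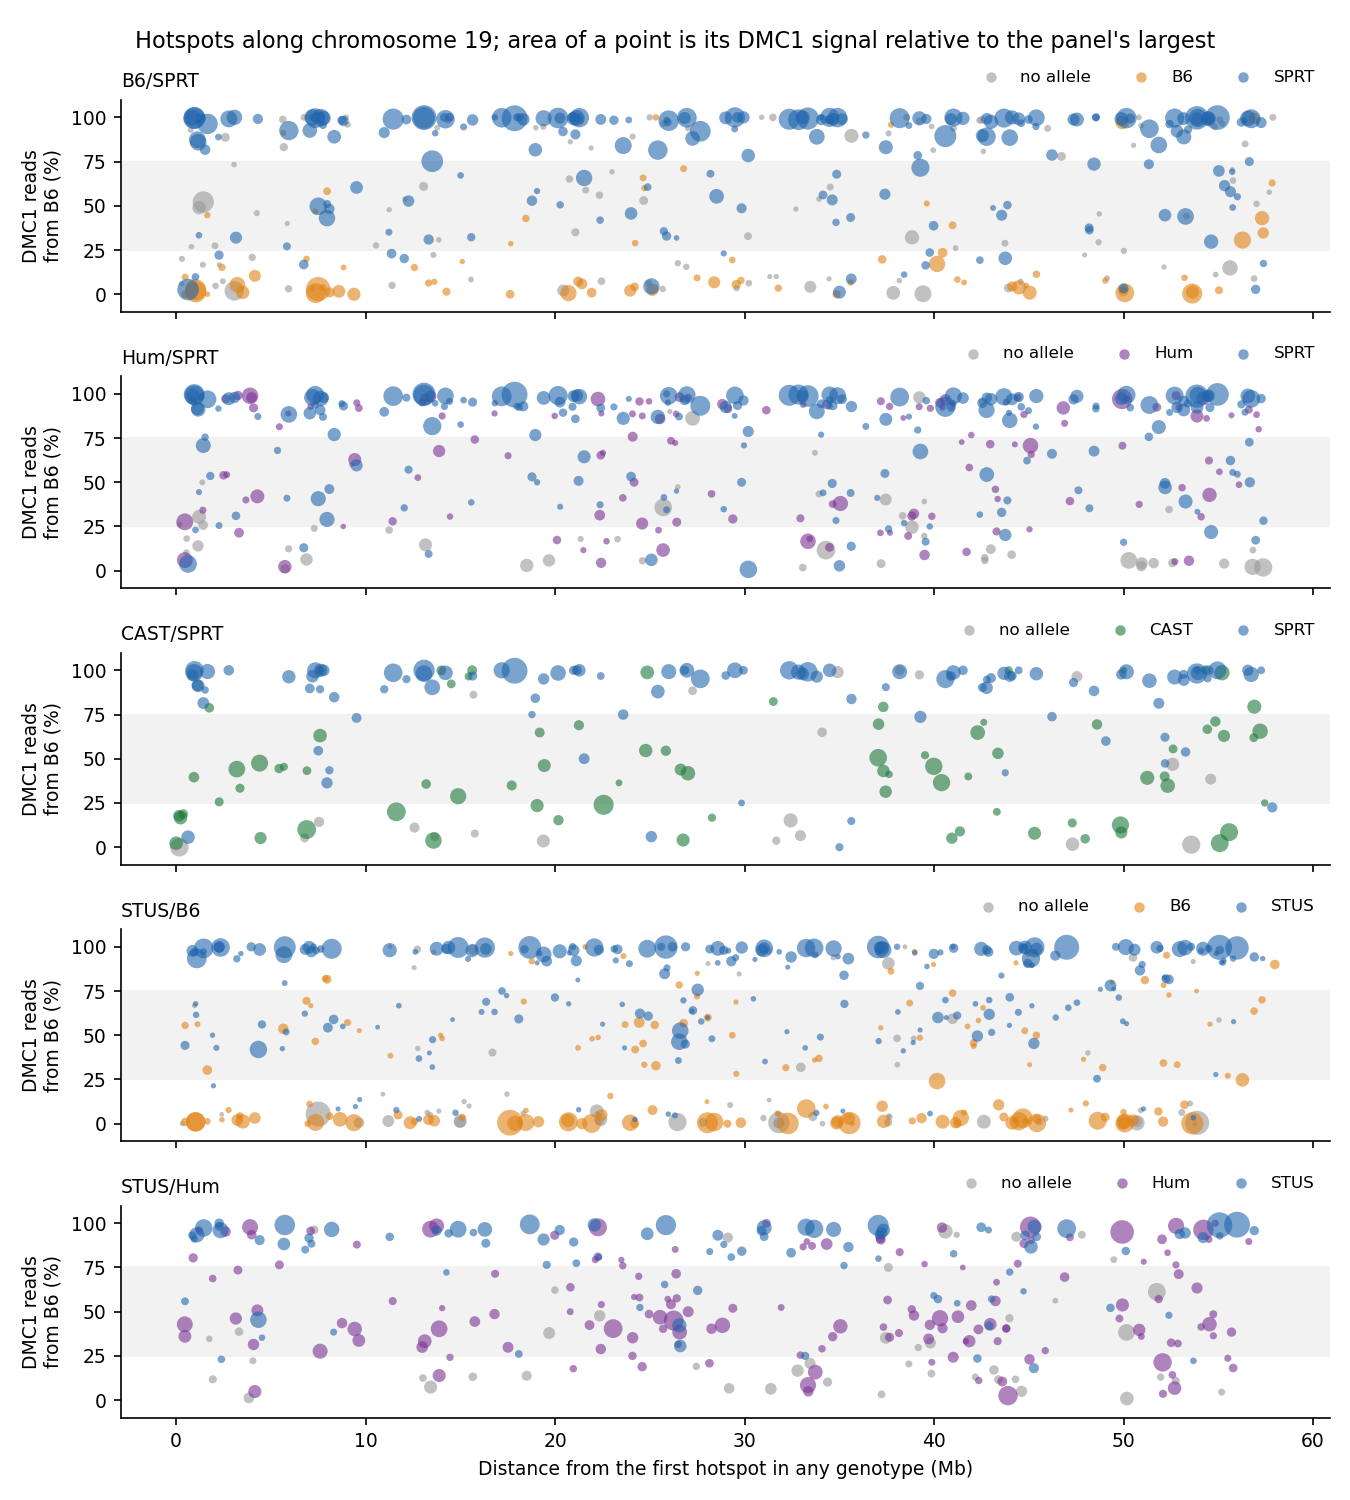
Percent of DMC1 reads from the B6 chromosome at each chromosome 19 hotspot against its distance in Mb from the first hotspot in any genotype, one panel per genotype. Color gives the PRDM9 allele, point area the DMC1 signal relative to the largest in the panel, and the grey band the matched range, which holds few of the large points.

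Hotspots of an allele recurred between hybrids of a cross. Of the SPRT hotspots, 243 were shared by B6/SPRT (98.8% of its 246) and Hum/SPRT (99.2% of its 245), with centers nearest to each other and within 500 bp. CAST/SPRT shared 112 of its 114 (98.2%) with B6/SPRT, which is 45.5% of those of B6/SPRT. STUS/B6 and STUS/Hum shared 93 STUS hotspots, 37.3% and 95.9% of theirs. Hum/SPRT shared all 114 of CAST/SPRT (100%; others 96.5 to 99.6%), more than on any other autosome. For the other pairs chromosome 19 was inside the range of the others, which had 97.8 to 99.4% of Hum/SPRT, 96.3 to 99.3% of CAST/SPRT and 85.8 to 97.5% of STUS/Hum hotspots shared. Since alleles were assigned by comparing mice, this recurrence is in part how the hotspots were named. B6 percentages at the shared positions differed by at most 10 percentage points at 164 of 189 SPRT hotspots between B6/SPRT and Hum/SPRT. It was so at 88 of 97 between B6/SPRT and CAST/SPRT, at 87 of 100 between Hum/SPRT and CAST/SPRT, and at 59 of 89 STUS hotspots. This agreement was not compared with the other autosomes. No shared hotspot moved from under 25% to over 75% or back. The proportion of shared hotspots matched in both libraries was 18.5% for B6/SPRT with Hum/SPRT and 15.7% for the STUS pair, below every other autosome in each case (20.4 to 31.9% and 19.5 to 26.9%). It was 10.3% for B6/SPRT with CAST/SPRT and 12% for Hum/SPRT with CAST/SPRT, where chromosome 18 was lower, at 7.69% and 7.81%.

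The same allele could also be followed against different partner chromosomes, a comparison added after seeing the data. Of the B6 hotspots, 99 were called in both B6/SPRT and STUS/B6, 80.5% and 57.9% of theirs. Among 62 with both percentages, 41 were one-sided in both, 7 matched in both, 10 matched only opposite STUS and 4 only opposite SPRT. Of the Hum hotspots, 117 were called in both Hum/SPRT and STUS/Hum, 68.0% and 71.8% of theirs. Among 87 with both percentages, 26 were matched in both, 24 in neither, 28 only opposite STUS and 9 only opposite SPRT, and 2 changed sides. At 32 of the 87 the percentages differed by at most 10 points. Hum hotspots were thus matched more often opposite the STUS than the SPRT chromosome at the same positions, 62.1% against 40.2% of the 87, in 1 library each. This difference of 21.8 percentage points was near the median of the other autosomes, 19.8, and so was the 9.68 for B6 hotspots, beside 7.32. Matched in both were 29.9% of shared Hum hotspots (others 22.2 to 50%) and 11.3% of B6 (11.1 to 28.4%).

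**Figure D5:**
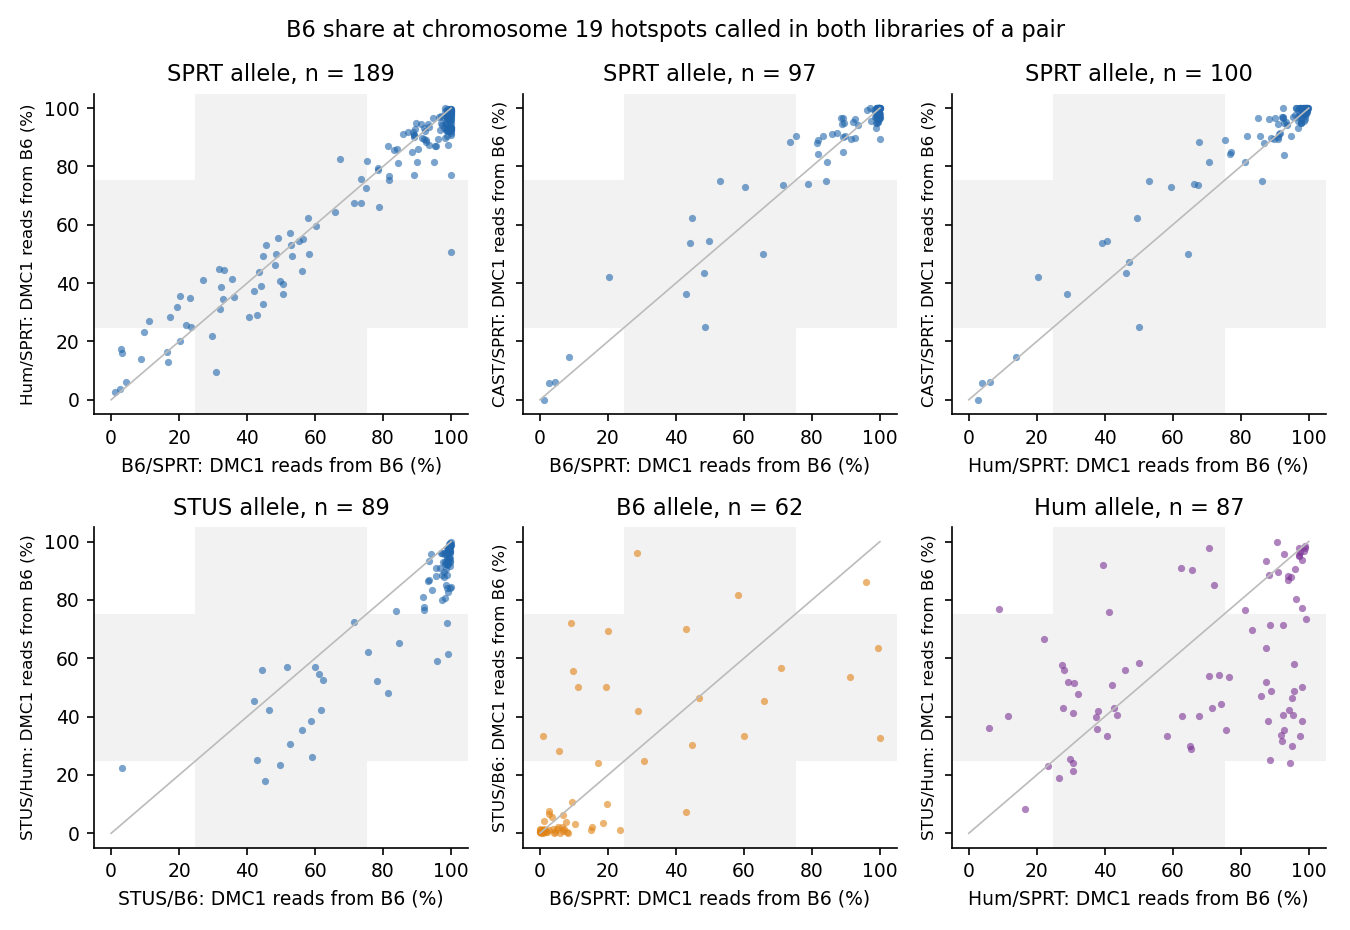
Percent of DMC1 reads from B6 at chromosome 19 hotspots called in both libraries of a pair, with one library on each axis. The upper row shows SPRT hotspots and the lower row STUS, B6 and Hum hotspots, grey bands mark the matched range and the line marks equal values, around which the Hum panel scatters most widely (32 of 87 within 10 percentage points).

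H3K4me3, a mark that PRDM9 places on bound nucleosomes, was listed for the 1 kb around each center in the SPRT hybrids. The values were assumed to pool the libraries of each hybrid. The median enrichment over input on chromosome 19 came to 5.77 in B6/SPRT, to 4.80 in Hum/SPRT and to 29.7 for CAST/SPRT, inside the range of the other autosomes in each. The median number of SNP-carrying reads was 194, 432 and 297. By H3K4me3, 294 of 529 hotspots were matched in B6/SPRT (55.6%, 51.3 to 59.8%; all autosomes 56.5%), 263 of 492 in Hum/SPRT (53.5%, 49.0 to 57.8%; 55.1%) and 121 of 250 in CAST/SPRT (48.4%, 42.3 to 54.6%; 47.8%). Chromosome 19 was therefore near the autosomal share by the mark, and lowest of the 19 in none of the 3 by count. Weighted by enrichment, its matched share was 53.4% in B6/SPRT and 56.0% in Hum/SPRT, the lowest of the 19 by a small margin (next 53.7% and 56.0%), and 60.4% in CAST/SPRT, the second highest.

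On chromosome 19 the mark leaned to the same homolog as DMC1 for SPRT, B6 and Hum hotspots, and for CAST hotspots it did not. SPRT hotspots were matched by H3K4me3 in 119 of 246 cases in B6/SPRT (48.4%; all autosomes 49.8%), 118 of 245 in Hum/SPRT (48.2%; 50.1%) and 30 of 114 in CAST/SPRT (26.3%; 35.7%). Their median H3K4me3 share from B6 was 74.3%, 74.7% and 90.5%, above all other autosomes in each (highest other 73.1%, 72.6% and 87.5%). For the other alleles the counts were 69 of 122 for B6 (56.6%; 60.7%), 103 of 172 for Hum (59.9%; 66.2%) and 75 of 99 for CAST (75.8%; 70.3%), lowest of the autosomes for Hum and highest for CAST. The SPRT share in CAST/SPRT was the lowest as well. At CAST hotspots 7 of 99 had under 25% of H3K4me3 reads from B6 and 17 over 75%. By DMC1 it was 23 and 14 of 80. By the mark these were 7.07% and 17.2%, beside medians of 10.9% and 19.7% on the other autosomes. By DMC1 they were 28.75% and 17.5%, beside medians of 18.8% and 28.3%, so elsewhere both measures leaned to B6. The chromosome 19 share by DMC1 was the highest of the 19 under 25% and the lowest over 75%. By the mark it was the lowest under 25% and inside the range over 75%.

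DMC1 was more one-sided than the mark at the same hotspots. Of the 391 with both percentages in B6/SPRT, 187 were matched by the mark and 98 by DMC1. In Hum/SPRT it was 168 and 116 of 383, and in CAST/SPRT 89 and 61 of 203. The read depth behind the DMC1 percentage is unknown, and its part in this difference was not tested. Nor was that of slower repair of breaks facing an eroded motif, or of H3K4me3 not placed by PRDM9. Of chromosome 19 hotspots matched by H3K4me3, DMC1 was matched at 95 of 187 in B6/SPRT (50.8%, 43.7 to 57.9%; other autosomes 52.5 to 63.4%), 109 of 168 in Hum/SPRT (64.9%, 57.4 to 71.7%; 60.3 to 75.5%) and 59 of 89 in CAST/SPRT (66.3%, 56.0 to 75.3%; 69.3 to 82.2%). This was the lowest of the 19 in B6/SPRT and CAST/SPRT. The unmatched remainder lay mostly under 25% B6, with 64, 37 and 23 hotspots, against 28, 22 and 7 over 75%. SPRT hotspots did not show this, with 15, 10 and 4 under 25% against 17, 16 and 4 over 75%. Hotspots of the other named alleles did: B6 had 20 against 2 and Hum 17 against 5. Of CAST hotspots matched by the mark, 16 of 60 had under 25% of DMC1 reads from B6 and 2 had over 75%. The rest of the 64, 37 and 23 lay at hotspots without an assigned allele, which in B6/SPRT outnumbered the B6 ones. The share over 75% was inside the range of the other autosomes for each named allele. For B6 it was 5.56% (others 2.78 to 11.5%), for Hum 7.46% (5.94 to 14.5%) and for CAST 3.33% (2.65 to 13.3%). SPRT hotspots had, in the order above, 20.7% (10.6 to 26.2%), 20.3% (7.09 to 22.7%) and 18.2% (12.5 to 32%). The share under 25% was not set beside other autosomes. Whether that lean is particular to chromosome 19 was not tested.

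Hotspots of chromosome 19 lay in genes more often than those of most autosomes, as does its sequence. Protein-coding genes of GRCm38.p6 cover 48.2% of the stretch between its first and last such gene, more than on any other autosome (32.9 to 46.0%). Centers within them numbered 325 of 531 in B6/SPRT (61.2%, interval 57.0 to 65.3%), 290 of 494 in Hum/SPRT (58.7%, 54.3 to 63.0%), 162 of 251 in CAST/SPRT (64.5%, 58.4 to 70.2%), 295 of 495 in STUS/B6 (59.6%, 55.2 to 63.8%) and 196 of 311 in STUS/Hum (63.0%, 57.5 to 68.2%). That was the highest of the 19 autosomes in all but Hum/SPRT, where 2 others were higher. On chromosome 19 matched hotspots were not regularly above one-sided ones in this, at 62.2% against 63.1% in B6/SPRT, 62.9% against 56.9% in Hum/SPRT, 62.3% against 67.6% in CAST/SPRT, 61.7% against 59.6% in STUS/B6 and 61.5% against 66.7% in STUS/Hum. The medians of the other autosomes were higher for matched hotspots in all 5, at 60% against 52.2%, 60.1% against 54.1%, 63.5% against 52.9%, 54.3% against 51.6% and 58.0% against 54.0% in that order. One-sided hotspots of chromosome 19 had the highest share of the 19 in each genotype but Hum/SPRT.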

How the data were processed

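Reads had been aligned by the authors (BWA and build mm10 are named in the submitters' processing notes), hotspots called in each DMC1 library, and alleles and homologs assigned. The DMC1 signal deposited for each hotspot is the caller's value, and how it was scaled to depth is not given. The deposited fraction of reads from the B6 homolog in DMC1 data has no read numbers beside it. For H3K4me3 the authors deposited coverage of ChIP and input, a ratio of enrichment, a fraction from B6 and counts of SNP-carrying reads, assumed to pool the libraries of each hybrid. The tables were matched to genotypes by the alleles they name and their hotspot totals. The authors' p-values and marks of sharing, 13 columns, were not used.

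Shares were computed per autosome and chromosome 19 set beside the lowest, median and highest of the other 18, using pandas 2.3.3 and numpy 2.4.6 under Python 3.11.15, scipy 1.17.1 for intervals and, for figures, matplotlib 3.10.9. Intervals are 95% Wilson intervals. Scripts were tested on simulated data. Members and lists were chosen with earlier results of these data known. Named hotspots were the strongest, and strongest matched, of each allele and genotype, and the 3 strongest matched in all 3 SPRT hybrids; genes overlap the center or are nearest. Promoter hotspots, sharing between crosses, the 3 groups by signal, the 20 strongest hotspots and leaving out the strongest 10 or 20 were chosen after seeing the data, as were the values of other autosomes set beside shared positions. Sequences are RefSeq, GRCm38.p6, which shares its coordinates with mm10; sequences of other hotspots were not analysed here.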

Additional observations from a re-analysis of the deposited data

How the results depend on the processing

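The chromosome 19 matched share by count stayed below the median of the other autosomes in every genotype under limits of 40 and 60%, with hotspots of an assigned allele only, with missing B6 percentages counted as unmatched, among hotspots at or above the median signal of a library and weighted by signal. With limits of 10 and 90% it was above that median in CAST/SPRT, by 0.501 percentage points; the cause was not tested. Weighting by signal deepened the difference to -8.59 percentage points in B6/SPRT and -7.77 in Hum/SPRT. It also raised the share of chromosome 19 in STUS/B6 to 3.34%, the 1 of 20 alternatives that left the interval. All 24 alternatives of sharing kept their counts within 1.5 times.

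The level of the share followed the limits. With 10 to 90% B6/SPRT had 42.7%, Hum/SPRT 53.5%, CAST/SPRT 46.8%, STUS/B6 41.8% and STUS/Hum 69.0%. With 40 to 60% it was 12%, 12%, 13.3%, 16.5% and 22% in that order. Weighted by signal, B6/SPRT had 15.9%, Hum/SPRT 20.1% and STUS/B6 12.6%. With missing values counted as unmatched it was 18.5% in B6/SPRT and 23.5% in Hum/SPRT, and among the stronger hotspots 19.2% in B6/SPRT, 21.4% in Hum/SPRT, 24.0% in CAST/SPRT and 21.0% in STUS/B6.

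By allele, 10 to 90% gave 34.2% for B6 and 41.2% for SPRT in B6/SPRT, 64.3% for Hum and 45.4% for SPRT in Hum/SPRT, and 73.8% for CAST and 27.5% for SPRT in CAST/SPRT. In the other cross it gave 47.1% for B6 and 42.4% for STUS in STUS/B6, and 81.5% for Hum and 48.4% for STUS in STUS/Hum. In the same order 40 to 60% gave 9.21%, 12.3%, 11.6%, 12.7%, 23.8%, 6.86%, 18.1%, 17.3%, 32.5% and 12.1%. Weighting by signal gave 12% for B6 and 14.5% for SPRT in B6/SPRT, 14.6% for SPRT in Hum/SPRT, 7.57% for SPRT in CAST/SPRT, 11% for B6 and 15.1% for STUS in STUS/B6, and 12.1% for STUS in STUS/Hum.

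Leaving out the 20 strongest hotspots of each autosome, chosen after seeing the data, changed the share by signal to 25.4% in Hum/SPRT, a difference of -3.11 percentage points. In STUS/Hum it became 45.5%, 1.73 percentage points above the median; the cause was not tested. In stretches of 5 Mb the lowest stretch changed place in Hum/SPRT, STUS/B6 and CAST/SPRT. In CAST/SPRT it had 39.3%, since only 2 such stretches held 20 hotspots with a B6 percentage. The DMC1 libraries had no replicates, and depth of the B6 percentages is unknown.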

Other observations

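The STUS and CAST alleles called some of the same places on chromosome 19. Of the 100 CAST hotspots of CAST/SPRT, 25 (25%) had a STUS hotspot of STUS/B6 as nearest neighbor within 500 bp, which is 10% of the 249 STUS hotspots there. On the other autosomes the share of STUS hotspots was 6.22 to 11.7%. With STUS/Hum there were 15, 15% of the CAST and 15.5% of the 97 STUS hotspots (others 6.25 to 15.2%). The B6 percentages at these places were unlike: among 18 with both values the median was 45.6% in CAST/SPRT and 97.0% in STUS/B6, and 11 were matched in CAST/SPRT against 1 in STUS/B6. That 1 is 5.56% of the 18, where the other autosomes had 16.7 to 52.6%. The share in STUS/B6 minus that in CAST/SPRT was -55.6 percentage points, and elsewhere it ran from -40 to 26.3. With STUS/Hum it was -54.5 among 11 with both values, and chromosome 3 had the same, so the contrast was wider than on every other autosome with STUS/B6 only. The comparison joins different alleles and different partner chromosomes and was chosen after seeing the data.

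The tables mark a hotspot KO at 3 entries of chromosome 19, a mark whose meaning was not settled from the tables. They were chr19:35422179 in B6/SPRT, with a DMC1 signal of 9.54, chr19:7752413 in Hum/SPRT, with 11.1, and chr19:7752771 in STUS/Hum, with 13.1. None had a B6 percentage for DMC1, and H3K4me3 enrichment was 0.474 at the B6/SPRT entry and 0.246 at the Hum/SPRT entry. The entries of Hum/SPRT and STUS/Hum lay 27.7 and 27.3 kb from Slc22a26.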
